A study of Mus musculus with 5 samples.

Results

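The genes described are 9 enzymes of the middle and lower part of glycolysis, Gpi1, Aldoa, Tpi1, Gapdh, Pgk1, Pgam1, Eno1, Ldha and Ldhb, out of 22267 genes with a symbol in the deposited table. They were chosen by name as the steps between glucose 6-phosphate and lactate other than phosphofructokinase and pyruvate kinase, and their levels were taken as FPKM, a fragment count scaled to transcript length and library depth, summed over the RefSeq transcripts of each gene. RNA came from E14 cells, a mouse embryonic stem cell line for which the labels give the strain C57BL/6, in 5 libraries with 1 library per group. The groups were normal cells and cells labelled as overexpressing Hk2 and Pkm2, each either cultured with leukemia inhibitory factor (LIF), the cytokine that holds these cells undifferentiated, or kept 24 hours without LIF before LIF was added. Libraries with the 24 hours are called after withdrawal below, and in them the time without LIF and its later addition cannot be told apart. The fifth library was of cells labelled as overexpressing after 40 days without LIF. The labels do not give the vector, its promoter or the number of clones behind the overexpressing cells.

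In glycolysis, phosphoglucose isomerase (Gpi1) and aldolase (Aldoa) turn glucose 6-phosphate, by way of phosphofructokinase, into 3-carbon sugars that triose phosphate isomerase (Tpi1) interconverts. Gapdh oxidizes glyceraldehyde 3-phosphate and reduces NAD, Pgk1 yields the first ATP, and Pgam1 and enolase (Eno1) shape the substrate of pyruvate kinase. Lactate dehydrogenase, a tetramer of subunits encoded by Ldha and Ldhb, reduces pyruvate to lactate and so restores NAD. Mouse embryonic stem cells are known for a high rate of both glycolysis and respiration, and several of these genes are known targets of the hypoxia factor HIF1.

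Between 10151 and 11114 transcripts reached 1 FPKM per library, and depth was estimated at 36250000 to 44500000 fragments from the FPKM steps of single-exon genes. The 6 pluripotency markers were present in each library, with Pou5f1 between 807 and 1092 FPKM. Nanog stood at 150 and 183 FPKM with LIF and Zfp42 at 266 and 278 FPKM, in normal and overexpressing cells. After withdrawal they stood at 59.3 and 54.5 FPKM and at 118 and 128 FPKM, and at 40 days at 29.6 and 40.9 FPKM. Sall4 and Lin28a stood higher at 40 days (45.6 and 208 FPKM) than in overexpressing cells with LIF (36.8 and 191 FPKM). Pou5f1 and Sox2 stood lower at 40 days than in those cells with LIF. Of the 6 fibroblast markers, 5 stayed at or below 0.508 FPKM, and Thy1 stood with LIF at 0.792 and 2.54 FPKM, after withdrawal at 1.27 and 4.32 FPKM and at 40 days at 4.26 FPKM, higher in overexpressing cells in both cultures. Hk2 stood at 76.2 and 98.6 FPKM in normal and overexpressing cells with LIF, and Pkm at 510 and 567 FPKM. After the 24 hour withdrawal these values were 49.7 and 59.0 FPKM for Hk2 and 611 and 564 FPKM for Pkm, so Hk2 was higher and Pkm lower in the overexpressing library there, and the cells are named by label only. The table lists 1 Pkm transcript, so the Pkm2 isoform was not measured apart. Ddx3y, a Y-linked gene, stood at 11.8 FPKM in both normal libraries and at 0.0225, 0.013 and 1.79 FPKM in overexpressing cells with LIF, after withdrawal and at 40 days. A difference between the labelled cell types and a difference between lines or clones therefore cannot be told apart. Uty, also Y-linked, stood in overexpressing cells at 0.00973 FPKM with LIF, 0.0113 FPKM after withdrawal and 0.369 FPKM at 40 days. For the 40 day library, time without LIF and a difference between lines or clones thus cannot be told apart either. With a single library in each group, differences between libraries cannot be set against replicate spread. In bulk RNA, fewer cells of a type and less RNA per cell cannot be told apart.

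Of the 9 genes, 7 had a value above 0 in each library. Gpi1 had a hyphen in place of a value in overexpressing cells with LIF and in normal cells after withdrawal. Eno1 was listed at 0 in all 5 libraries, although every cell that runs glycolysis needs enolase. Its near-copy Eno1b lies on another chromosome, where its coding sequence aligns as 1 block. Eno1b stood with LIF at 293 FPKM in normal and 250 FPKM in overexpressing cells. After withdrawal it stood at 299 and 311 FPKM, and at 40 days at 251 FPKM. In the mm9 transcripts of GENCODE vM1 the coding sequences of Eno1 and Eno1b differ at 8 of 1305 bases, an identity of 99.4%, so most fragments of one match the other. Neither a 0 for Eno1 nor a value for Eno1b can be taken as the level of that gene, and how far the Eno1b values stand for Eno1 was not tested.

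The same kind of search was made for all 9 genes, by aligning each coding sequence to the mm9 genome and counting other loci that match at least 50% of it. Gapdh, the gene most often used as a reference, had 149 such loci at 90% identity or more, 69 at 95% and 39 at 98%. Pgk1 had 2 and Pgam1 2 at 98% identity or more, Eno1 had 2 including Eno1b, and Ldhb had 1. Ldha had 10 loci at 90% or more and none at 98%, Gpi1 had 1 at 97.7%, and Aldoa (4 loci) and Tpi1 (1 locus) had none at 95%. The labels do not say how fragments with several possible origins were assigned, so the levels of Gapdh, Pgk1, Pgam1 and Ldhb are less certain than those of Aldoa, Tpi1 and Ldha.

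**Figure D1:**
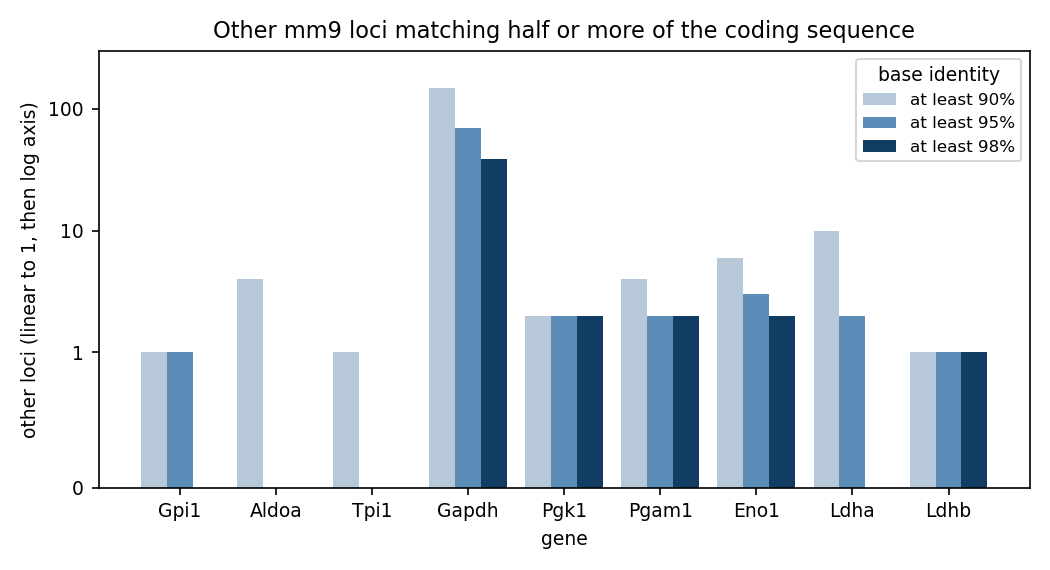
Number of other mm9 loci (vertical axis, linear up to 1 and logarithmic above) that match at least 50% of the coding sequence of each gene (horizontal axis) at 3 levels of base identity. Gapdh stands apart with 149, 69 and 39 loci, while Aldoa and Tpi1 have none at 95% identity.

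On mm9, Gpi1 lies on chromosome 7 from 34987141 to 35015308, Aldoa on chromosome 7 from 133938748 to 133944265, Tpi1 on chromosome 6 from 124760604 to 124764314, Gapdh on chromosome 6 from 125111871 to 125116485 and Ldhb on chromosome 6 from 142438769 to 142456477, all on the minus strand. On the plus strand lie Pgk1 on chromosome X from 103382439 to 103399038, Pgam1 on chromosome 19 from 41986361 to 41993154, Eno1 on chromosome 4 from 149610830 to 149622988 and Ldha on chromosome 7 from 54096845 to 54110997. All 9 are protein-coding. The library kit does not mark strand, and 2 of the genes overlap a gene on the opposite strand. Tpi1 overlaps Spsb2, listed at 0 in all 5 libraries. Gpi1 overlaps a long noncoding RNA gene that was not found by name in the deposited table.

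Aldolase A was the most abundant of the 7 measured genes in each library. Aldoa stood at 701 and 690 FPKM in normal and overexpressing cells with LIF, at 831 and 918 FPKM after withdrawal and at 588 FPKM at 40 days. The pair of libraries after withdrawal was highest and the 40 day library lowest. All of its signal was assigned to 1 of 3 listed transcripts.

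Tpi1, the next step, showed the same order of cultures with a wider range. It stood at 161 and 164 FPKM in normal and overexpressing cells with LIF, at 226 and 257 FPKM after withdrawal and at 146 FPKM at 40 days. The highest value was 1.76 times the lowest, against a median of 1.86 over the 8841 genes above 0 in each library and of 1.45 over the 472 of these with a mean of at least 100 FPKM.

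Gapdh, which feeds electrons into NAD, stood at 509 and 451 FPKM with LIF in normal and overexpressing cells, at 576 and 577 FPKM after withdrawal and at 497 FPKM at 40 days. Its highest value was 1.28 times its lowest. Of the genes above 0 in each library, 11.6% had a smaller range, and 28.6% of those with a mean of at least 100 FPKM. Pgk1, the first ATP-yielding step, stood at 98.2 and 108 FPKM with LIF, 122 and 148 FPKM after withdrawal and 119 FPKM at 40 days. It was higher in overexpressing than in normal cells in both cultures, and lowest in normal cells with LIF.

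Pgam1, the mutase that moves the phosphate before enolase, stood at 227 and 239 FPKM with LIF, 238 and 259 FPKM after withdrawal and 189 FPKM at 40 days. The 4 earlier libraries lay close together and the 40 day library below them. Gpi1, at the top of this stretch, had a level of 47.3 FPKM for normal cells grown with LIF, 29.8 FPKM in overexpressing cells after withdrawal and 46.7 FPKM at 40 days. Only 3 values exist for it, so Gpi1 entered no count below.

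Ldha, the subunit gene that prevails in muscle and in glycolytic cells, stood at 418 and 477 FPKM with LIF in normal and overexpressing cells, at 519 and 450 FPKM after withdrawal and at 482 FPKM at 40 days. It had the smallest relative range of the 7, with a highest value 1.24 times its lowest. Ldhb, the subunit gene that prevails in heart, had the widest. Ldhb stood at 20.6 FPKM in normal and 12.4 FPKM in overexpressing cells with LIF, at 44.2 and 22.6 FPKM after withdrawal and at 23.1 FPKM at 40 days. Its highest value was 3.57 times its lowest, a range wider than that of 81.8% of the genes above 0 in each library.

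**Figure D2:**
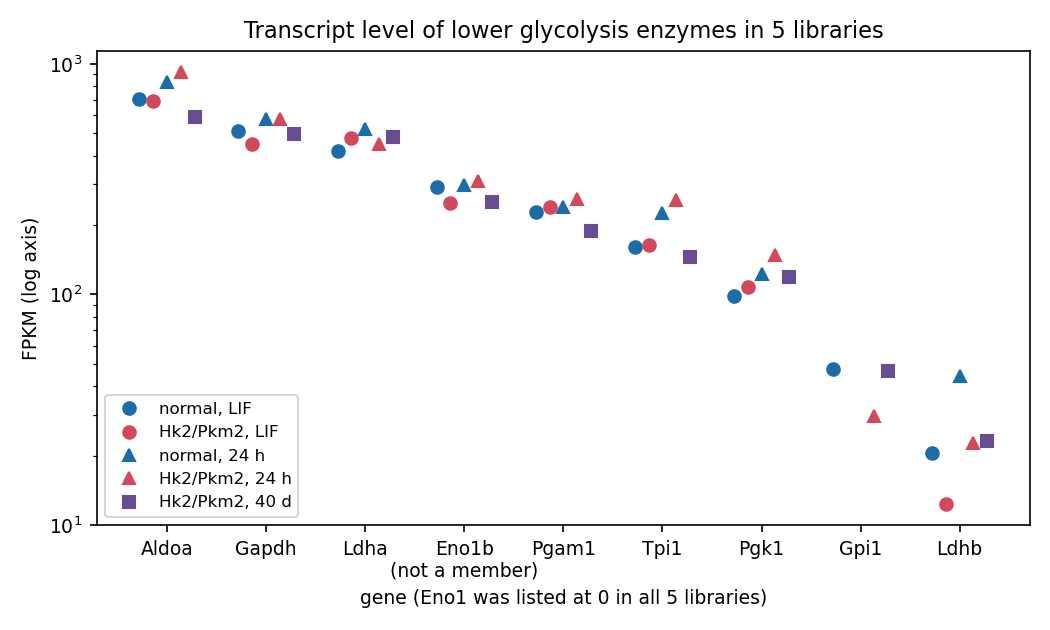
FPKM (vertical, logarithmic axis) of 8 of the genes and of Eno1b, which is not one of the 9, in each library; circles are cells with LIF, triangles the 24 hour withdrawal, squares cells after 40 days without LIF, and blue marks normal cells. Aldoa is highest in each library, Ldhb spreads most (12.4 to 44.2 FPKM), and Gpi1 has only 3 points.

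The order of levels on this per-length scale, from high to low, was Aldoa, Gapdh, Ldha, Pgam1, Tpi1, Pgk1 and Ldhb in 4 of the 5 libraries. In overexpressing cells with LIF, Ldha (477 FPKM) stood above Gapdh (451 FPKM). Neighbours in this order came close in places: Tpi1 and Pgam1 were at 257 and 259 FPKM in overexpressing cells after withdrawal, and the ranges over the 5 libraries of Gapdh and Ldha overlap, as do those of Tpi1 with Pgam1 and, narrowly, of Tpi1 with Pgk1. The summed FPKM of the 7 genes was 2135 and 2143 with LIF in normal and overexpressing cells, 2558 and 2632 after withdrawal and 2045 at 40 days. Both libraries after withdrawal were higher than the other 3. The sum made up 0.719% of all FPKM in the table in normal cells with LIF and 0.953% in overexpressing cells after withdrawal, the lowest and highest shares. Aldoa contributed between 28.8% and 34.9% of the sum, Gapdh between 21.1% and 24.3% and Ldha between 17.1% and 23.6%.

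**Figure D3:**
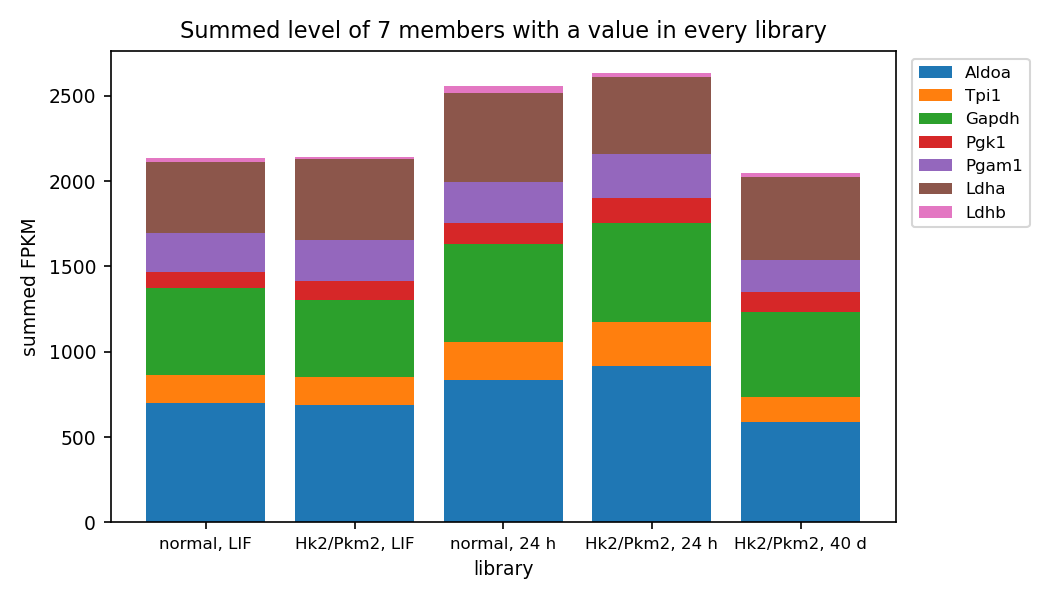
Summed FPKM (vertical axis) of the 7 genes with a value in each library, stacked by gene, for each of the 5 libraries (24 h: after the 24 hour withdrawal; 40 d: 40 days without LIF). The pair after withdrawal reaches 2558 and 2632, against 2045 to 2143 in the other 3.

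Differences between 2 libraries are given as log2 ratios of FPKM + 1, which understates differences at low levels, and are read against the 9590 genes with a mean of at least 1 FPKM and no hyphen. Genes at least 0.32 apart on the log2 scale, or at least 2-fold apart, were counted without a test. Over the 480 genes averaging at least 100 FPKM, a level that 6 of the 7 reach, the shares in either direction were smaller. At least 0.32 apart were 23.75% of them between cell types with LIF and 20% after withdrawal. For withdrawal the shares were 26.0% in normal and 27.1% in overexpressing cells. At 40 days they were 47.7% against LIF and 45.4% against withdrawal. The comparison of cell types asks how the enzymes between hexokinase and pyruvate kinase, and lactate dehydrogenase after them, stand in cells labelled as overexpressing Hk2 and Pkm2. With LIF, 6 of the 7 genes lay within 0.32 and Ldhb was the exception, lower in overexpressing cells by 0.69 on the log2 scale. The share of all genes lower by at least that much was 23.1%, and 39.1% were apart in either direction. None of the 7 was 2-fold apart, where 9.43% of all genes were. The median log2 ratio of the 7 was 0.032, against -0.044 for all genes, and the other 6 lay between -0.17 for Gapdh and 0.19 for Ldha.

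After withdrawal the same count held. Ldhb was again lower by at least 0.32 in overexpressing cells, with a log2 ratio of -0.94, and the other 6 were not, against 22.2% of all genes lower and 37.8% in either direction. None of the 7 was 2-fold apart, beside 9.37% of all genes. The ratio of overexpressing to normal cells for Ldhb was 0.601 with LIF (95% counting interval 0.538 to 0.671) and 0.512 after withdrawal (0.471 to 0.555). These exact binomial intervals use 526 to 1813 estimated fragments per library and cover counting error only. Pgk1 had the highest ratio of the 7 after withdrawal, at 0.27 on the log2 scale, and 0.14 with LIF. The median over the 7 was 0.12, beside -0.021 for all genes.

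Across both cultures, limma, a linear model fitted to all 9590 genes with cell type and culture as terms, gave Ldhb a cell type difference of -0.81 ± 0.12 (SE, 4 libraries) at an adjusted p of 0.512. None of the 7 passed an adjusted p of 0.05, nor did any of the 9590 genes (0%). At an unadjusted p under 0.05 stood 1 of the 7, Ldhb, beside 918 of all genes (9.57%). That count was 2 under TPM and upper-quartile scaling, 3 under quantile normalization, where Aldoa and Pgk1 joined, and 0 of 6 with only genes of at least 100 FPKM, which drops Ldhb. Pgk1 had a cell type difference of 0.20 ± 0.08 (SE), Aldoa of 0.061 ± 0.11, Gapdh of -0.086 ± 0.10 and Ldha of -0.0079 ± 0.15, the signs of the last pair turning under TPM scaling and quantile normalization, and that of Ldha also under median-ratio and upper-quartile scaling. The fit has 1 residual degree of freedom, and its p measures agreement across these 2 cultures only.

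The 24 hour withdrawal asks how the enzymes stand once cells have been without LIF, with the limit given above that LIF was then added. In normal cells all 7 genes were higher after withdrawal, with a median log2 ratio of 0.31, while the median of all genes was -0.0055 and 48.1% of them were above 0. Ldhb stood 2.15-fold higher in FPKM (95% counting interval 1.97 to 2.33) and Tpi1 1.41-fold. These 2 were higher by at least 0.32 on the log2 scale, beside 18.9% of all genes, with 38.3% apart in either direction. Pgk1 (0.316) and Ldha (0.311) lay just under that limit. Ldhb was 2-fold higher, as were 4.62% of all genes, with 10.1% apart in either direction.

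In overexpressing cells 6 of the 7 were higher after withdrawal and Ldha was slightly lower, at a log2 ratio of -0.084. The median was 0.41, beside 0.0042 for all genes, and 5 of the 7 were higher by at least 0.32, beside 20.7% of all genes higher and 41.4% apart in either direction. Tpi1 was 1.56-fold, Pgk1 1.37-fold, Aldoa 1.33-fold and Gapdh 1.28-fold higher in FPKM. Ldhb was 1.83-fold higher (95% counting interval 1.64 to 2.04), while Pgam1 differed by 1.08-fold. None was 2-fold apart, beside 11.9% of all genes. Summed over the 7 genes, FPKM was 1.23-fold higher after withdrawal in overexpressing and 1.20-fold higher in normal cells.

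In limma the culture difference was 0.94 ± 0.12 for Ldhb (SE, 4 libraries; adjusted p 0.334), 0.57 ± 0.086 for Tpi1 (adjusted p 0.345) and 0.38 ± 0.08 for Pgk1 (adjusted p 0.359). None of the 7, and none of the 9590 genes (0%), passed an adjusted p of 0.05. At an unadjusted p under 0.05 stood these 3 of the 7, beside 1154 of all genes (12%). Aldoa (0.33 ± 0.11) and Gapdh (0.27 ± 0.10) were higher without reaching that level. Aldoa reached it under TPM, upper-quartile and quantile scaling and with only genes of at least 100 FPKM, Gapdh under quantile normalization, and Pgk1 lost it without the trend (p 0.0644 in limma). Pgam1 was at 0.094 ± 0.074 and Ldha at 0.11 ± 0.15. Among markers of other cell types, Tubb3 differed with the culture, from 31.7 and 48.4 FPKM with LIF to a listed 0 and 3.27 FPKM after withdrawal. The 4 neural markers summed to between 4.77 and 52.6 FPKM, most of it Tubb3 where the sum was high. In normal cells Sox1, Neurod1 and Pax6 stood slightly higher after withdrawal (1.68 to 1.90, 1.48 to 2.08 and 0.753 to 0.788 FPKM). In overexpressing cells Sox1 and Neurod1 stood lower after withdrawal (3.08 to 1.29 and 0.683 to 0.494 FPKM). Pax6 stood higher there (0.361 to 0.803 FPKM). The mesoderm marker Eomes was higher after withdrawal in normal (0.423 to 1.21 FPKM) and overexpressing cells (0.691 to 3.58 FPKM). The mesoderm markers T, Mesp1 and Kdr stayed at or below 0.242 FPKM. The pluripotency markers Nanog and Zfp42, given above, were lower after withdrawal in both cell types, as were Pou5f1, Sox2 and Lin28a. Sall4 was higher after withdrawal in normal cells (38.9 to 61.1 FPKM) and lower in overexpressing cells (36.8 to 30.8 FPKM). The part of these markers in the differences was not tested.

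**Figure D4:**
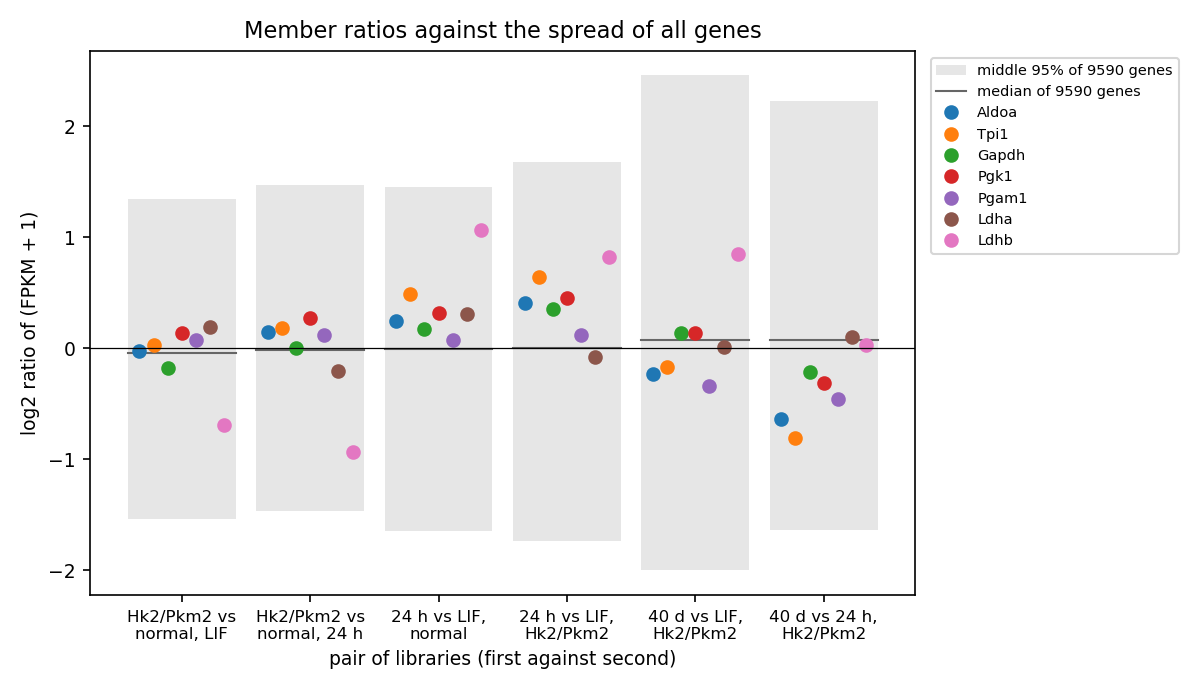
Log2 ratios of FPKM + 1 (vertical axis) of 7 genes for 6 pairs of libraries, the first named against the second; grey bands hold the middle 95% of 9590 genes and grey lines their median, and the pairs share libraries. All 7 points lie inside the bands in each pair, and Ldhb is the lowest point in both cell type pairs and the highest in both withdrawal pairs.

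After 40 days without LIF, 5 of the 7 genes stood below their level after the short withdrawal. Against overexpressing cells with LIF, Ldhb was higher by at least 0.32 (log2 ratio 0.85, beside 35.5% of all genes) and Pgam1 lower (-0.34, beside 26% of all genes), where 61.5% of all genes were apart in either direction. The other 5 lay between -0.23 for Aldoa and 0.14 for Gapdh, with a median of 0.014 over the 7, beside 0.076 over all genes and -0.15 over the 480 genes with a mean of at least 100 FPKM. Of those 480 genes, 62 were higher and 167 lower by at least 0.32. None of the 7 was 2-fold apart, where 22.3% of all genes were. Under median-ratio scaling the signs of Gapdh, Pgk1 and Ldha turned and 4 genes were at least 0.32 apart, and under quantile normalization the sign of Tpi1 turned.

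Against overexpressing cells after withdrawal, 5 of the 7 were lower at 40 days and 3 of them lower by at least 0.32, beside 23.9% of all genes lower, 34.3% higher and 58.2% in either direction. Tpi1 (-0.81) and Aldoa (-0.64) had the lowest log2 ratios, followed by Pgam1 (-0.45). Ldhb (0.032) and Ldha (0.098) stood slightly higher, signs that turned under median-ratio scaling. None of the 7 was 2-fold apart, beside 17.8% of all genes. The median was -0.31 over the 7, beside 0.072 over all genes and -0.19 over those 480 genes, of which 48 were higher and 170 lower by at least 0.32. Gpi1, which has a value in both, went the other way, from 29.8 to 46.7 FPKM, 1.57-fold (95% counting interval 1.48 to 1.66). This comparison and the previous one share the 40 day library, whose levels of Ddx3y and Uty, given above, differ from those of both other overexpressing libraries. That library also differed in markers of another cell type: the 5 endoderm genes summed to 35.3 FPKM at 40 days and to 1.53 to 2.29 FPKM in the other 4. Most of the 40 day sum was Gata4 at 25.6 FPKM and Gata6 at 7.88 FPKM. Foxa2 stood at 1.80 FPKM at 40 days and at most at 0.116 FPKM in the other 4. Sox17 went the other way, listed at 0 at 40 days and at 0.0199 to 0.0672 FPKM in the other 4. Afp was listed at 0 in each library. Their part in the result was not tested.

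The pair of lactate dehydrogenase genes, whose products mix in 1 tetramer, stood in different ratios. Ldha stood 20.3-fold above Ldhb in normal cells with LIF and 38.5-fold above it in overexpressing cells with LIF. After withdrawal the ratios were 11.7 and 19.9, and 20.8 at 40 days. Ldhb thus made up 4.69% and 2.53% of the summed FPKM of both genes with LIF, 7.85% and 4.78% after withdrawal and 4.58% at 40 days. In both cultures the share was lower in overexpressing than in normal cells, and in both cell types it was higher after withdrawal. The third subunit gene, Ldhc, which is known from sperm, stayed at or below 0.591 FPKM.

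**Figure D5:**
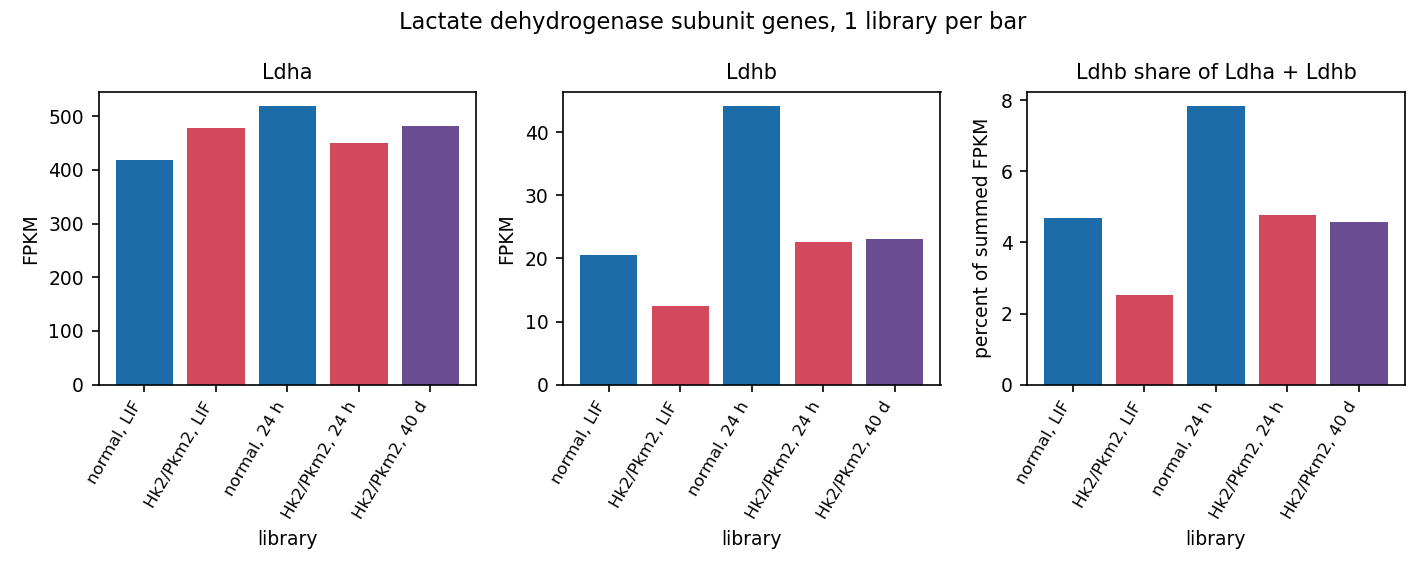
FPKM of Ldha and of Ldhb and the percent of their sum held by Ldhb (vertical axes, each from 0) in 5 libraries, 1 library per bar (24 h: after the 24 hour withdrawal; 40 d: 40 days without LIF). Ldha lies between 418 and 519 FPKM, while Ldhb and its share are lower in overexpressing than in normal cells and higher after withdrawal than with LIF.

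Pgk1 is added here to Ldha and Ldhb, picked from several genes that stood higher after withdrawal in both cell types. The bases upstream of Ldha, Ldhb and Pgk1 are shown, so that members that move together or apart can be set beside that sequence. They are the 250 bases before a RefSeq start on GRCm38.p6, at chr7:46845554-46845803 on the plus strand for Ldha, chr6:142507958-142508207 on the minus strand for Ldhb and chrX:106186850-106187099 on the plus strand for Pgk1. Capitals mark ACGTG, the core of a hypoxia response element, or its complement CACGT.
Ldha: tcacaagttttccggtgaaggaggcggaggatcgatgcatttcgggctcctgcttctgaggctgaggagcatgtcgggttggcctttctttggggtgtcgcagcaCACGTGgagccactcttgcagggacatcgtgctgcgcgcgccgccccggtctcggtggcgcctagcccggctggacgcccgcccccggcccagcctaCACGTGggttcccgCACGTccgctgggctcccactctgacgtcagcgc
Ldhb: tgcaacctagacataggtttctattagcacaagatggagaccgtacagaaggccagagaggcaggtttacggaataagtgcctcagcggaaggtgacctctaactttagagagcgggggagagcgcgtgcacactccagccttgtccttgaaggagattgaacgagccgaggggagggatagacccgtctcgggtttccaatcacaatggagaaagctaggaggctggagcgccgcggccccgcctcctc
Pgk1: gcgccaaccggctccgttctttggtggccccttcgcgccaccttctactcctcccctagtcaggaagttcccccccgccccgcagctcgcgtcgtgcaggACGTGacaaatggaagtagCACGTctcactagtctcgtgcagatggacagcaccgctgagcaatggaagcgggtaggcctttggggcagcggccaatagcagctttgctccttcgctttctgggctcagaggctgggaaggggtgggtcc

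Of 32851 RefSeq windows of this length, 16.6% hold ACGTG on either strand. All 9 genes matched a window, 14 windows in all, some of them overlapping. The motif was in 5 of the 14, from 4 genes: Aldoa, Ldha, Pgam1 and Pgk1. G and C made up 50.4% to 71.2% of the bases in the 14 windows, against a median of 52.4% over all windows. The Ldha window shown has 5 matches, 4 of which belong to 2 copies of the E-box CACGTG, which reads the same on both strands and is found in 6.02% of all windows. A second Ldha window, not shown, has no ACGTG. The Ldhb window shown has no ACGTG. Of the genes higher after withdrawal in both cell types, Aldoa, Pgam1 and Pgk1 have the motif in a window. Tpi1, Gapdh and Ldhb, also higher in both, do not. A link between the motif and the levels was not tested. The motif TTCNNNGAA, bound by the STAT factors through which LIF signals, was found in none of the 14 windows and in 7.02% of all windows. The GC box GGGCGG was found in 8 of the 14 windows, from 6 of the 9 genes, and in 32.7% of all windows. CCAAT was found in 6 of the 14, from 4 of the 9 genes, and in 33.8% of all. These matches describe letters in a window, and none of them was measured as a bound site.

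The tissue-specific isozymes of the same steps described here stayed below 5 FPKM, apart from Eno3 and the near-copy Eno1b. Beside Eno1b, 3 isozyme genes passed a mean of 1 FPKM. Eno3, the muscle enolase, stood at 25.1 and 13.7 FPKM with LIF in normal and overexpressing cells, 31.4 and 17.2 FPKM after withdrawal and 10.99 FPKM at 40 days, above Ldhb in both LIF libraries. It was lower in overexpressing cells in both cultures, with limma at -0.83 ± 0.087 (SE, 4 libraries; adjusted p 0.512). Eno2, the enolase of neurons, was at 4.21 FPKM at 40 days and at most 1.04 FPKM in the other 4. Aldoc, the brain aldolase, was listed at 0 in 3 libraries and reached 3.26 FPKM for normal cells grown with LIF and 2.01 FPKM at 40 days. Gapdhs, Pgk2, Pgam2 and Ldhc stayed at or below 0.752 FPKM.

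Among the other steps of glycolysis 6 of 9 genes passed the filter. The phosphofructokinase genes Pfkl, Pfkm and Pfkp, which commit sugar to this stretch, were at least 2-fold higher after withdrawal in both cell types, with log2 ratios from 1.04 to 2.38, beside 4.62% of all genes in normal and 5.79% in overexpressing cells. For Pfkm this rests on a transcript listed at 0 in both LIF libraries: with its highest transcript alone the ratios were 0.73 and 0.55, under 2-fold. Hk2 was lower after withdrawal, at -0.61 and -0.73, and Hk1 at -0.31 and -0.19. Pkm, which acts between enolase and lactate dehydrogenase, was at 0.26 in normal and -0.0070 in overexpressing cells, beside 0.31 and -0.084 for Ldha. Between cell types, 1 of the 6 was 2-fold higher with LIF, Pfkl at 1.08, beside 4.11% of all genes, and none after withdrawal. Of 10 branch and reverse-step genes, 6 passed the filter. With LIF only Pck2, the mitochondrial phosphoenolpyruvate carboxykinase, was 2-fold lower in overexpressing cells, at -1.41, beside 5.32% of all genes. At 40 days Hk2 was 2-fold lower than with LIF (-1.73, beside 8.31% of all genes) and Pfkm 2-fold lower than after withdrawal (-1.22, beside 5.78%), though at -0.34 with its highest transcript alone. Pck2 (1.82) and Fbp2 (1.67), a fructose bisphosphatase, were 2-fold higher than in overexpressing cells with LIF, beside 14% of all genes, and at 1.52 and 1.91 against the withdrawal library, beside 12.1%.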

How the data were processed

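Messenger RNA of 5 libraries was measured, and the authors deposited FPKM per RefSeq transcript. TopHat2 2.0.7, Cufflinks 2.0.2 and the mm9 build are named in the submitters' processing notes, and the labels record no other settings. FPKM is scaled to length and depth, so no count model was run. Of 28698 transcripts, 28066 were named by accession from a RefSeq table of GRCm38.p6, and FPKM was summed into 22267 genes. The 337 genes with a hyphen in a transcript were left out, and 9590 genes averaging at least 1 FPKM were kept, 749 of which are listed at 0 in a library. Ratios used log2(FPKM + 1). Limma 3.58.1 (R 4.3.3, lmFit, eBayes with trend, Benjamini-Hochberg over all 9590 genes) was run on 4 libraries. A run on simulated data had to recover the size of set changes. It had to pass most of them only at a spread far below that observed. How many would pass at the observed spread is not reported here, so the absence of passing genes does not show that none differs. Medians are over the 7 genes that passed, not all 9, since Eno1 is at 0 and Gpi1 has hyphens.

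Depth was the number of fragments that puts the most single-exon genes at 1 fragment, 12 to 23 genes per library, a rough estimate, and 95% exact (Clopper-Pearson) intervals follow from it. Copies were found with BLAST 2.17.0 on NCBIM37 (mm9), merging hits within 20 kb. The genes named are the 9 enzymes, their isozymes (of which 1 is not reported here), the other steps, branch steps, and the 3 genes with a mean of at least 10 FPKM closest in profile to each. The members and lists were chosen with earlier results of these data known. Alternatives covered 4 scalings, a pseudocount of 0.1, 2 filters, the highest transcript per gene, rows with a copy suffix and limma without trend.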

Additional observations from a re-analysis of the deposited data

Results flagged for a closer look

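Of the 7 genes, 3 had log2 ratios of opposite sign under the same contrast. The difference between cell types was 0.19 with LIF and -0.21 after withdrawal for Ldha, -0.022 and 0.14 for Aldoa, and -0.17 and 0.0021 for Gapdh. For Gapdh the 95% counting interval of the ratio after withdrawal was 0.983 to 1.02, so counting error alone leaves its sign there undecided. The withdrawal difference of Ldha was 0.31 in normal and -0.084 in overexpressing cells. With 1 library per group these differences between groups were not tested. The signs of Ldha were the same under the 9 alternatives run, with ranges of 0.19 to 0.38 and -0.21 to -0.13 between cell types and of 0.30 to 0.37 and -0.15 to -0.054 for withdrawal. Only the 4 scalings and the pseudocount of 0.1 among these alternatives can change the Ldha ratio, since 1 transcript holds all its signal. For Aldoa with LIF all 4 other scalings gave a positive ratio, up to 0.39.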

How the results depend on the processing

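Ldhb kept its sign between cell types and on withdrawal under the 8 alternatives that retain it, with log2 ratios of -0.73 to -0.58 with LIF, -0.96 to -0.88 after withdrawal, 1.05 to 1.13 in normal and 0.80 to 0.86 in overexpressing cells. Only the 4 scalings and the pseudocount of 0.1 among them can change the Ldhb ratio, since Ldhb has 1 listed transcript. No alternative gave a gene passing an adjusted p of 0.05 in limma. The number of the 7 genes at least 0.32 apart on the log2 scale was less stable. Between cell types with LIF it was 3 under quantile normalization, against 1, and after withdrawal 2 under TPM scaling. For withdrawal in normal cells it was 4 under TPM, 4 under upper-quartile scaling and 5 under quantile normalization, against 2. At 40 days against LIF it was 4 under median-ratio, 1 under upper-quartile and 1 under quantile scaling, against 2, and against withdrawal 5 under median-ratio scaling, against 3. With only genes of at least 100 FPKM, which drops Ldhb, the counts were 0, 0 and 1 for cell type with LIF, cell type after withdrawal and withdrawal in normal cells, and 1 for 40 days against LIF. The median log2 ratio moved to 0.16 between cell types with LIF under TPM, to -0.18 and 0.14 at 40 days against LIF under median-ratio and quantile scaling, and to -0.48 and -0.19 against withdrawal. Smaller relative moves were a count of 4 against 5 for withdrawal in overexpressing cells, under quantile normalization and with genes of at least 100 FPKM, and of 4 against 3 at 40 days against withdrawal under upper-quartile scaling. At an unadjusted p under 0.05 in limma stood 0 to 3 of the genes for cell type, against 1, and 2 to 5 for culture, against 3. The median of all genes moved from 0.076 to -0.087 and from 0.072 to -0.074 in the 40 day pairs under median-ratio scaling, to -0.032 and -0.046 under quantile normalization, and from -0.044 to 0.065 between cell types with LIF under TPM. The causes were not tested.

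Of all genes at least 0.32 apart, the share that was higher moved from 40.9% to 56.9% between cell types with LIF under TPM scaling and to 51.4% under upper-quartile scaling. At 40 days against LIF it moved from 57.8% to 44.3% under median-ratio and 47.7% under quantile scaling, and against withdrawal from 58.9% to 44.8% and 46.4%. For 2-fold calls it moved from 62.8% to 51.5% and 52.3%, and from 67.6% to 56.3% and 54.0%. No paired analysis was possible because each group holds 1 library and so no replicate numbers to pair, although the limma fit compares cell types within culture through its culture term. With 1 library per group, none could be left out with a residual to spare.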

Other observations

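Aldoart1, a retrogene known from mouse testis whose locus matches the coding sequence of Aldoa at 94.0% identity, was listed at 30.5 and 29.1 FPKM in normal and overexpressing cells with LIF, 29.7 and 39.6 FPKM after withdrawal and 27.4 FPKM at 40 days. It was chosen after its values were seen. Of the sperm lineage markers, Prm1 and Tnp1 were listed at 0 in all 5 libraries, while Ddx4 had a value in each. Ddx4 stood with LIF at 2.52 FPKM in normal and 2.31 FPKM in overexpressing cells. It stood at 3.76 and 3.40 FPKM after withdrawal and at 8.03 FPKM at 40 days.

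For none of the 7 was the gene closest in profile over the 5 libraries another of the 7. The 7 are few among the 4566 candidates, so this says little about whether they move together. Among 4566 candidates the closest to Pgam1 was Vbp1, a prefoldin subunit, at a root mean square difference of 0.0078 on the log2 scale, and the closest to Gapdh was Prdx2, a peroxiredoxin, at 0.019. Closest to Ldha was Strn3 at 0.031 and to Aldoa Dcakd at 0.041. For Tpi1 it was Arhgef18 at 0.049 and for Pgk1 Etl4 at 0.053. For Ldhb it was Vdac3, a mitochondrial outer membrane channel, at 0.072, with 9.76 and 4.73 FPKM with LIF, 19.6 and 10.2 FPKM after withdrawal and 10.1 FPKM at 40 days. The closest pair among the 7 was Aldoa and Tpi1, at 0.11, where Aldoa ranked 10 among the genes nearest to Tpi1 and Tpi1 ranked 66 among those nearest to Aldoa. These likenesses over 5 libraries are descriptions without a test.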
